A study of Homo sapiens with 131 samples.

Results

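The 8 mRNAs described here encode MHC class I chains and the machinery that loads them with peptide. They were taken by gene name, out of 12997 genes listed in any editing table. They are B2M, HLA-B, HLA-C, HLA-E, TAP1, TAP2, TAPBP and ERAP1, and all 8 were listed in each of the 40 editing tables. By the RefSeq annotation of GRCh38.p14, B2M lies on chromosome 15 and ERAP1 on chromosome 5, while the other 6 lie on chromosome 6, from HLA-E at 30489509 to 30494194 to TAPBP at 33299694 to 33314078. They were chosen by the strong C-to-U editing of B2M, a measured value. The C-to-U values of B2M, and those of all 8 mRNAs in APOBEC1-DDX6 cells, are therefore given as a description without a test.

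Class I molecules display peptides from inside the cell to CD8 T cells and natural killer cells. HLA-B, HLA-C and HLA-E encode heavy chains, which pair with the light chain beta-2 microglobulin, the product of B2M. Peptides enter the endoplasmic reticulum through the transporter made of TAP1 and TAP2, tapasin (TAPBP) holds empty class I molecules at the transporter, and the aminopeptidase ERAP1 trims the peptides there. Processing bodies (P-bodies) are cytoplasmic granules that hold repressed mRNAs together with the helicase DDX6 and proteins such as LSM14A, 4E-T and PATL1.

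The study fused such proteins to an RNA deaminase, so that edited bases mark RNAs that met the fusion. APOBEC1 turns cytidine into uridine (C-to-U), whereas ADAR2dd, the catalytic part of ADAR2, turns adenosine into inosine (A-to-I). HCT116, a colorectal carcinoma line, carried induced single fusions with ADAR2dd or APOBEC1 beside the unfused enzyme as control, or the pair APOBEC1-DDX6 and LSM14A-ADAR2dd (the dual fusion) beside the unfused pair (the dual control). HEK293T, an embryonic kidney line, carried the same pair and its control, LSM14A-TRIBE-ID sampled 0, 15, 30, 60 and 120 min after rapamycin, and DDX6-STAMP-ID sampled at 0, 15, 30 and 120 min. A further HCT116 set with the dual fusion and its control is labelled illumina. Uninduced HCT116 lines carrying APOBEC1-DDX6 or 1 of 3 unfused controls, wild-type and DDX6-KO cells of both lines, and 1 nanopore library of the dual fusion per line complete the data used here. The labels give neither the inducer, nor the promoter of a transgene, nor whether a line is 1 clone. Whether replicates are separate cultures is not given, so p-values reflect how far these libraries spread, which may be technical.

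The 83 editing libraries held 6259071 to 13432692 reads, in 44 groups of 1 to 3 libraries. In uninduced HCT116 cells 6 of 8 epithelial markers exceeded 1 TPM in every library, while VIL1 stayed at 0.0342 to 0.284 TPM and CDX1 was listed at 0. In HEK293T dual control cells 7 of 7 HEK293T markers exceeded 1 RPM (reads scaled to the total of the library). The 4 epithelial markers listed there exceeded it too, with KRT18 at 60.8 to 65.3 RPM against 673 to 688 in HCT116 dual control cells. In the latter the 2 HEK293T markers listed also exceeded 1 RPM. Passing 1 RPM therefore does not tell the lines apart. Sampling noise covered the difference in reads within 15 of 41 replicate pairs, and the difference in edited reads within 2 of 47. The 2 illumina dual control libraries differed by less than the noise in reads (chi-square test, p = 0.880) and in C-to-U edited reads (p = 0.0663). Their difference in A-to-I edited reads was not covered by the noise. They may still count as 1 sample. Below, the score of a gene is its edited reads as a percent of its reads. Values of HLA-B, HLA-C and HLA-E are uncertain where reads could be shared between similar heavy chain genes. Intervals and limits from counts cover counting error only.

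RNA levels were compared first across uninduced HCT116 lines, in TPM, which is scaled per transcript length. HLA-C had 328, 345 and 349 TPM in the 3 libraries of the APOBEC1 control, 490.1, 493 and 497 in APOBEC1-DDX6, 517 and 537 in the dual control and 495 and 528 in the ADAR2dd control. B2M had 155, 152 and 148 TPM in the APOBEC1 control, 235, 229 and 226 in APOBEC1-DDX6, 240.1 and 231 in the dual control and 192 and 187 in the ADAR2dd control. For both genes the APOBEC1 control was lowest and overlapped no other line. HLA-B had 111 to 119, 150.0 to 158, 192 to 195 and 150.3 to 153 TPM in the same order of lines. HLA-E had 154 to 161, 165 to 171, 233 to 242 and 192 to 194 TPM. The heavy and light chain mRNAs were thus lowest in the same line. The transporter subunit TAP1 and tapasin varied less, with group means of 47.5 to 56.3 TPM for TAP1 and 61.7 to 71.5 TPM for TAPBP.

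**Figure D1:**
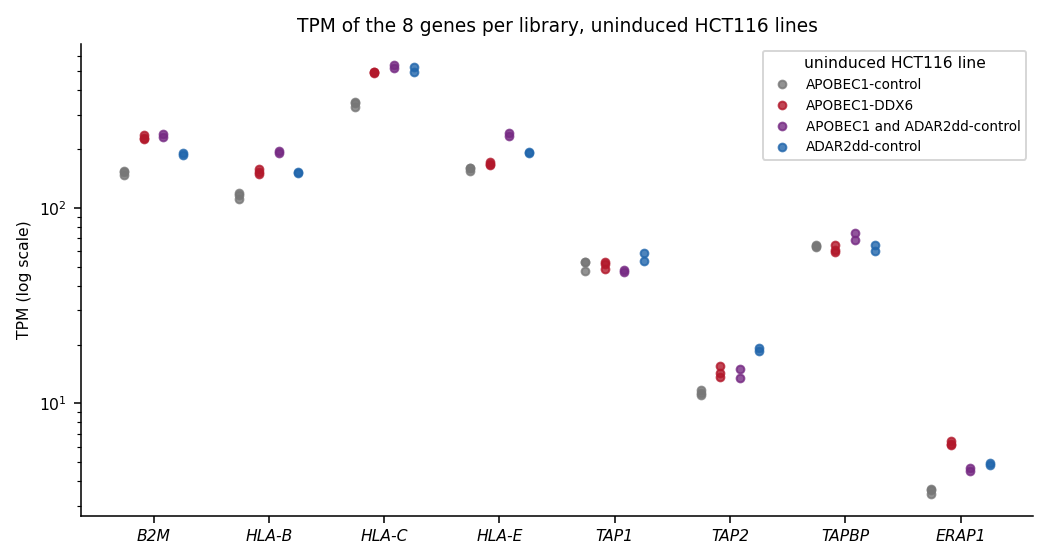
TPM of the 8 genes (log axis) in each library of the 4 uninduced HCT116 lines; each point is 1 library. B2M, HLA-B, HLA-C, HLA-E, TAP2 and ERAP1 lie lowest in the APOBEC1 control line, with B2M at 148 to 155 TPM there.

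In uninduced APOBEC1-DDX6 cells 6 of the 8 mRNAs were higher than in the APOBEC1 control (limma, Benjamini-Hochberg over 16229 genes; 23.6% of all genes were called higher). The differences on the log2(TPM + 1) scale were 0.60 ± 0.03 (SE) for B2M, 0.53 ± 0.03 for HLA-C, 0.41 ± 0.03 for HLA-B, 0.67 ± 0.06 for ERAP1, 0.33 ± 0.06 for TAP2 and 0.09 ± 0.02 for HLA-E. The limma adjusted p was 2.73e-07 for B2M. The call for HLA-E did not hold without replicate 1 of the control (0.07, adjusted p = 0.0516) or replicate 2 of APOBEC1-DDX6 (0.07, adjusted p = 0.0679). TAP1 stood at -0.00 and TAPBP at -0.05, and neither passed. In the dual control line 7 of 8 were higher (39.6% of all genes), led by HLA-B at 0.74 ± 0.03, B2M at 0.63 ± 0.03, HLA-C at 0.63 ± 0.03 and HLA-E at 0.58 ± 0.03. TAPBP, at 0.16 ± 0.05, did not hold there without replicate 2 of that line (0.10, adjusted p = 0.156). In the ADAR2dd control line 6 of 8 were higher (39.2% of all genes), led by TAP2 at 0.69 ± 0.06 and HLA-C at 0.58 ± 0.03. The median of all genes lay 0.01 above the APOBEC1 control in APOBEC1-DDX6 cells, 0.13 in the dual control and 0.10 in the ADAR2dd control. Relative to that median TAP1 in the dual control (-0.25) and TAPBP in the ADAR2dd control (-0.16) were lower, and TAP2, ERAP1 and TAPBP in the dual control no longer passed. The 3 comparisons share the APOBEC1 control.

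The 6 markers of blood and antigen presenting cells summed to 12.6 to 12.9 TPM in the APOBEC1 control, 22.6 to 26.4 in APOBEC1-DDX6, 13.4 to 17.3 in the dual control and 7.69 to 7.81 in the ADAR2dd control. HLA-DRA, a class II chain, had 4.74 to 21.4 TPM and ITGAX 1.80 to 4.72, while PTPRC, the pan-leukocyte marker, did not exceed 0.0327 TPM and MS4A1 was listed at 0. Their part in these differences was not tested.

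HEK293T and HCT116 cells differed in every member. In the dual control libraries B2M had 184 ± 6.68 RPM (SD, n = 2) in HEK293T and 487 ± 1.19 in HCT116. HLA-E had 66.1 ± 2.55 and 232 ± 8.33, and TAPBP 41.0 ± 1.31 and 140.4 ± 3.67. All 8 mRNAs were lower in HEK293T (edgeR on reads, Benjamini-Hochberg over 10357 genes; 42.7% of all genes were called lower). The log2 differences were -1.89 ± 0.04 (SE) for HLA-E, -1.85 ± 0.05 for TAPBP, -1.48 ± 0.03 for B2M, -1.38 ± 0.06 for TAP1, -0.73 ± 0.08 for TAP2, -0.65 ± 0.03 for HLA-C, -0.57 ± 0.03 for HLA-B and -0.32 ± 0.11 for ERAP1. The call for ERAP1 did not hold without HCT116 replicate 1 (-0.25, adjusted p = 0.0845). Line and library preparation cannot be told apart here, and in bulk RNA fewer expressing cells and less RNA per cell cannot be told apart either.

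Promoters of the light chain, the heavy chains HLA-B and HLA-C and TAP1 are shown as examples of the 8 genes, whose mRNAs were all lower in HEK293T. Those of TAP2, TAPBP and ERAP1 are not printed, and a link of promoter letters to the difference between lines was not tested. The RefSeq table used holds promoters for 7 of the 8 genes, in 9 windows, with a pair of start sites each for TAP1 and ERAP1. The sequences are the 250 bases before the start on the gene's strand of GRCh38.p14, and they are the reference, not alleles of these cells. Capitals mark matches on either strand to CCAAT (the letters bound by NF-Y), TGACG (the core of sites bound by CREB and ATF factors) or GAAA followed, after any 2 bases, by GAAA (called the ISRE core here, part of the interferon-stimulated response elements that IRF factors bind).
B2M: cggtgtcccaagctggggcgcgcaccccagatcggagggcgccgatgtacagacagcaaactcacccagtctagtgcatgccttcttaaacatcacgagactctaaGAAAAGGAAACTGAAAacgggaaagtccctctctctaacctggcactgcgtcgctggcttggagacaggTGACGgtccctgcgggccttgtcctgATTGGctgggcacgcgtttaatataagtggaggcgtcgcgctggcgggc
HLA-B: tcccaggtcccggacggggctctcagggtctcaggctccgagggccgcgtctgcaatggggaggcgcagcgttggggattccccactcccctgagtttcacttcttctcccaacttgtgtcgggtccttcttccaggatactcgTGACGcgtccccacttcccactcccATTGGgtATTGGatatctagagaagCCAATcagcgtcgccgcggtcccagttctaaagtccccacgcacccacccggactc
HLA-C: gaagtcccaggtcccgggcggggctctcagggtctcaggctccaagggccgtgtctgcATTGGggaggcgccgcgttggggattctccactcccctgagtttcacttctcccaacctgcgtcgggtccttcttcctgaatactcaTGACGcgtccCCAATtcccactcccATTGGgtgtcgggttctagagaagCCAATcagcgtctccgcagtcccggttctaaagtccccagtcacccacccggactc
TAP1: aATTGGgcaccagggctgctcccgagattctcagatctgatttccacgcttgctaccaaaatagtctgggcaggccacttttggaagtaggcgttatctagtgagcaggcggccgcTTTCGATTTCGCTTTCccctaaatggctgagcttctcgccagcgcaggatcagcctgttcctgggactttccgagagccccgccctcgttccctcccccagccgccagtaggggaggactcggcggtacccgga
These windows are chr15:44711267-44711516 on the plus strand for B2M, and chr6:31357180-31357429, chr6:31272093-31272342 and chr6:32853705-32853954 on the minus strand for HLA-B, HLA-C and TAP1. CCAAT was found before B2M, HLA-B, HLA-C and 1 start each of TAP1 and ERAP1, and in 32.0% of 35116 promoter windows of this length. TGACG was found before B2M, HLA-B, HLA-C and TAP2, and in 21.2% of all windows. B2M, HLA-B and HLA-C held both, as did 7.26% of all windows. The ISRE core was found before B2M, 1 start of TAP1, TAP2 and TAPBP, and in 3.02% of all windows, and its matches overlap each other before B2M, TAP1 and TAPBP. Near matches were not counted, so a window without a match, such as those of HLA-B and HLA-C for the ISRE core, may still hold a similar stretch. A match describes the letters and is not a bound site.

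Between induced fusion lines and their controls the reads of the members differed in both directions. Over 30 comparisons, 7 of them of a rapamycin time with 0 min, 89 of 240 tests found a member higher and 38 lower (edgeR on reads). Of all gene tests 22.5% were called higher and 22.6% lower. The ADAR2dd fusions share a control, the APOBEC1 fusions share another, and the times of each rapamycin construct share the 0 min libraries. A low or high value in a shared control therefore counts in several tests, and the sums do not measure a general rise. Of these 127 calls 101 held without any single library. In induced APOBEC1-DDX6 cells 7 members were higher than in induced APOBEC1 control cells (41.6% of all genes), with log2 differences of 1.05 ± 0.03 (SE) for HLA-B, 0.87 ± 0.02 for HLA-C, 0.69 ± 0.03 for TAPBP and 0.43 ± 0.02 for B2M. TAP2 stood at 0.11 ± 0.06 and did not pass. In DCP2-APOBEC1 cells 7 members were lower (35.1% of all genes), led by HLA-B at -0.82 ± 0.04 and B2M at -0.43 ± 0.03, and TAP2 did not hold without control replicate 1, control replicate 3 or fusion replicate 1 (adjusted p = 0.202, 0.0574 and 0.616).

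The light chain and the heavy chains did not always move together. In HEK293T cells with the dual fusion B2M had 115 ± 2.55 RPM against 184 ± 6.68 in the control and fell, with a log2 difference of -0.74 ± 0.04 (33.3% of all genes were called lower and 33.5% higher). There HLA-B rose by 0.40 ± 0.04, HLA-C by 0.40 ± 0.03 and HLA-E by 0.44 ± 0.06. In HCT116 cells with the dual fusion HLA-B rose by 0.70 ± 0.03 and HLA-C by 0.44 ± 0.02, and B2M stood at -0.03 ± 0.02 without passing (37.6% of all genes were higher). In the illumina set 7 members were lower (33.9% of all genes), with B2M at -0.47 ± 0.02 and HLA-B at -0.31 ± 0.03. TAPBP there did not hold without fusion replicate 1 (adjusted p = 0.0621).

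C-to-U editing of the light chain mRNA covered a wide range. B2M, on chromosome 15 at 44711517 to 44718145, was edited in 12.3%, 12.2% and 12.4% of its reads in the 3 APOBEC1-DDX6 libraries and in 3.38%, 3.80% and 3.37% in the 3 of the APOBEC1 control. The groups did not overlap, and the pooled shares were 2636 of 21447 reads and 446 of 12688 reads. By score, B2M held rank 7 of 11567 genes in APOBEC1-DDX6 cells and rank 11 of 11386 in the control, where 0.313% of all reads were edited. In the dual controls B2M held rank 2923 of 11171 in HCT116, rank 6928 of 10442 in the illumina set and rank 14 of 10664 in HEK293T.

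**Figure D2:**
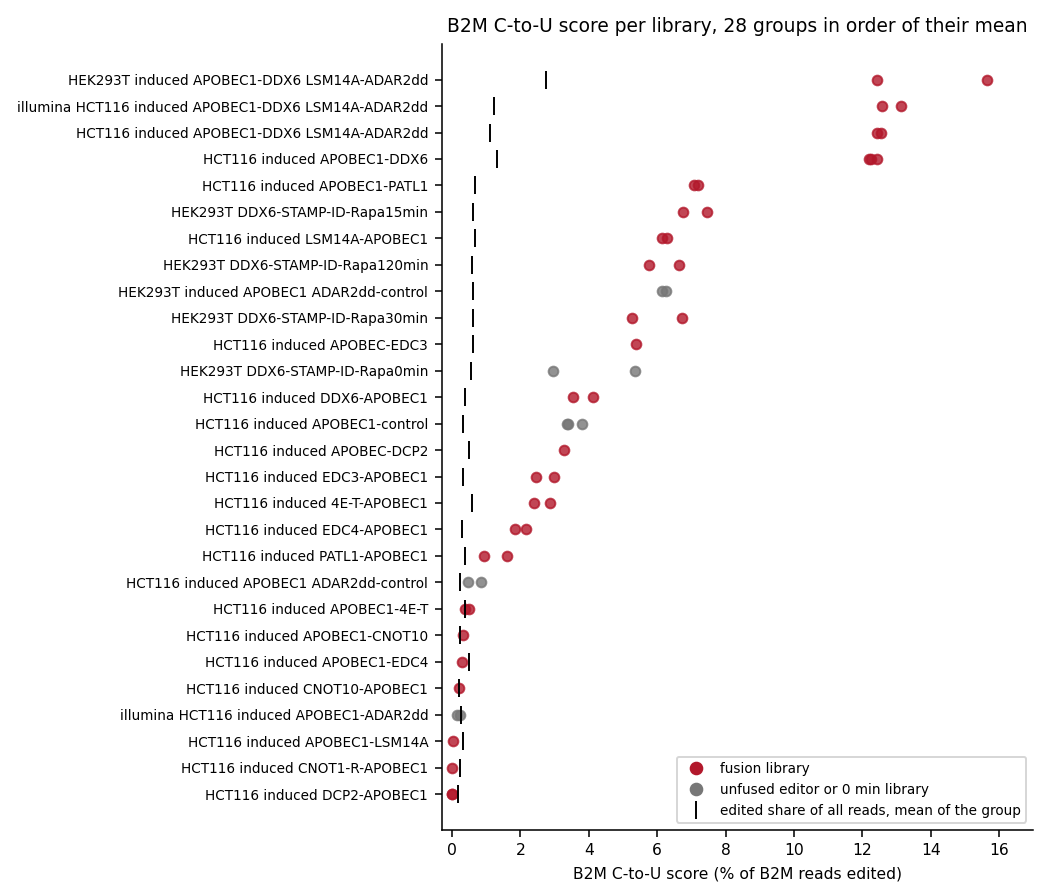
C-to-U score of B2M in each library (points, percent of B2M reads) for 28 groups in order of their mean; black ticks give the edited share of all reads. The 4 groups with APOBEC1-DDX6 lie between 12.2 and 15.7%, above every other library.

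With both editors in the cell B2M reached 12.4% and 12.6% in HCT116, 13.1% and 12.6% in the illumina set and 12.4% and 15.7% in HEK293T. The matching controls were 0.453% and 0.853%, 0.156% and 0.228% and 6.14% and 6.26%. The fusions thus lay close together while the HEK293T control was well above the HCT116 controls. The pooled ratio of fusion to control was 18.8 in HCT116 and 2.25 in HEK293T. In the order of group means, 14% ± 2.29 (SD, n = 2) for the HEK293T dual fusion was followed by 12.8% ± 0.403 for the illumina set, 12.5% ± 0.0900 for HCT116 and 12.3% ± 0.111 (n = 3) for APOBEC1-DDX6 alone, and the first of these overlapped the second.

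The next groups were APOBEC1-PATL1 at 7.14% ± 0.0815 (SD) and DDX6-STAMP-ID at 15 min at 7.11% ± 0.487, which overlapped. LSM14A-APOBEC1 had 6.21% ± 0.0916, DDX6-STAMP-ID 6.20% ± 0.628 at 120 min, the HEK293T dual control 6.20% ± 0.0852 and DDX6-STAMP-ID 6.0% ± 1.02 at 30 min, each overlapping the next. The single library of APOBEC-EDC3 had 5.38% (exact Clopper-Pearson 95% interval 4.43 to 6.45). DDX6-STAMP-ID at 0 min had 4.14% ± 1.70 and DDX6-APOBEC1 3.84% ± 0.424, and both overlapped the next group in the order. At 0 min the 2 libraries were 5.35% and 2.94%, so they overlapped those at 30 min, 5.28% and 6.72%, but neither those at 15 min, 6.77% and 7.46%, nor those at 120 min, 6.65% and 5.76%. Of the genes tested 20.7% at 15 min and 20.8% at 120 min lay above 0 min without overlap. Another 13.6% and 13.5% lay below it without overlap.

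Several fusions left B2M with a lower C-to-U score than the unfused APOBEC1 at 3.51% ± 0.245 (SD, n = 3). EDC3-APOBEC1 had 2.71% ± 0.367, 4E-T-APOBEC1 2.64% ± 0.343, EDC4-APOBEC1 2.01% ± 0.232 and PATL1-APOBEC1 1.27% ± 0.493. APOBEC1-4E-T had 0.370% and 0.496%. DCP2-APOBEC1 had 0 of 7513 reads, where a floor of 3 counts would be 0.0399%. In single libraries APOBEC-DCP2 had 3.26% (interval 2.51 to 4.16), APOBEC1-EDC4 0.288% (0.138 to 0.529) and APOBEC1-CNOT10 0.308% (0.193 to 0.466). CNOT10-APOBEC1 had 0.209% (0.124 to 0.330), APOBEC1-LSM14A 0.0217% (0.000549 to 0.121) and CNOT1-R-APOBEC1 0 of 3325 reads (0 to 0.111). The CNOT10-APOBEC1 and CNOT1-R-APOBEC1 values follow the sample titles that their column names match. The libraries of DDX6, PATL1 and 4E-T with APOBEC1 first and with APOBEC1 last did not overlap, with APOBEC1 first higher for DDX6 and PATL1 and lower for 4E-T.

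Across 22 HCT116 groups the genes whose log C-to-U score followed B2M most closely were HSBP1 (Pearson r = 0.965), SELENOF (0.960), ANXA5 (0.950), TMEM59 (0.949) and PLS3 (0.945), among 8002 genes. Of the other members TAP2 held place 853 (r = 0.778) and TAP1 place 6841 (r = 0.075). These groups share controls, library depth and the library-wide level of editing.

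In APOBEC1-DDX6 cells the heavy chain mRNAs carried fewer C-to-U edits than B2M, whose C-to-U editing led to the choice of the genes. HLA-B had 3.75%, 2.80% and 3.76% against 5 of 5064 reads in the control, HLA-E had 1.55%, 0.917% and 0.639%, and HLA-C had 0.717%, 0.420% and 0.382%. The transporter subunits differed, with TAP2 at 2.62%, 3.49% and 3.33% and TAP1 at 0%, 0.0788% and 0.350%. All but TAP1 and TAPBP lay above the control without overlap, that is 6 of 8, where 57.2% of the genes tested did so; these values entered the choice of the genes. B2M was the most edited of the 8 in 19 of 28 groups, a count that the choice by its C-to-U editing favours.

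With the other 9 replicated APOBEC1 fusions, 24 tests of the remaining members were possible and 5 were called higher (edgeR on edited reads; 9.76% of all gene tests were called higher). HLA-B had 0.647% and 0.754% in APOBEC1-PATL1 cells (23.4% of genes were higher) and 0.897% and 0.525% in LSM14A-APOBEC1 cells (27.9%). TAP2 had 2.68% and 2.01% and 1.76% and 2.11% in the same cells, against 3 of 1209 reads in the control. The TAP2 ratio in APOBEC1-PATL1 cells was 9.45, with a counting interval of 2.98 to 48.0 and an edgeR adjusted p of 0.00445, and this call held without any single library. TAPBP in APOBEC1-PATL1 cells had 0.693% and 0.841% and an adjusted p of 0.0304. There TAPBP did not hold without control replicate 1, control replicate 2, fusion replicate 1 or fusion replicate 2 (adjusted p = 0.0679, 0.109, 0.0603 and 0.127), nor HLA-B without fusion replicate 2 (adjusted p = 0.0651). In LSM14A-APOBEC1 cells HLA-B did not hold without control replicate 1 or fusion replicate 1 (adjusted p = 0.0574 and 0.115), nor TAP2 without control replicate 2, control replicate 3, fusion replicate 1 or fusion replicate 2 (adjusted p = 0.0587, 0.0519, 0.0528 and 0.0672). DESeq2 made none of the 4 calls it gave a p for, and limma none of the 5.

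In cells with the dual fusion C-to-U scores of HLA-B were 2.65% and 2.65% in HCT116 against 3 of 5531 reads in the control, and 2.62% and 2.25% in HEK293T against 21 of 2668 reads. HLA-C had 0.445% and 0.692% in HCT116 and 1.66% and 1.65% in HEK293T, and TAP2 4.01% and 3.39% and 6.95% and 4.33%. In HCT116 HLA-B, HLA-C, HLA-E, TAP2 and TAPBP were called (50.6% of all genes), and each held without any single library. In HEK293T HLA-B, HLA-C, TAP2 and TAPBP were called (67.6% of all genes), of which TAP2 (adjusted p = 0.0518) and TAPBP (0.0587) did not hold without fusion replicate 1. HLA-E in HEK293T had 1.63% and 4.04% and did not pass. In the illumina set HLA-B, HLA-C, HLA-E, TAP2, TAPBP and ERAP1 were called (49% of all genes), and none of the 6 held without fusion replicate 2, where the adjusted p ran from 0.0559 for HLA-B to 0.145 for TAP2. ERAP1 did not hold without control replicate 1 (0.111) or 2 (0.0963) either, nor TAP2 without control replicate 2 (0.117), and HLA-B, HLA-C, HLA-E, TAP2 and TAPBP did not hold without fusion replicate 1 (0.0547 for HLA-B to 0.0907 for TAP2).

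A-to-I editing was a separate readout. With LSM14A-ADAR2dd in HCT116 cells all 8 members were edited above the unfused ADAR2dd and none overlapped it (93.1% of the genes tested were called higher, and 96.3% lay above the control without overlap). Of all reads 4.93% were edited with the fusion and 0.232% in the control. The median gene, among those with at least 100 reads, had 3.51% with the fusion. B2M, HLA-E and HLA-B scored below that median in both libraries, and HLA-C below the share of all reads. B2M had 2.81% and 2.89% of reads edited against 0 of 10691 reads in the 2 control libraries, and was at least 102-fold higher. HLA-C had 4.29% and 4.26% against 0 of 11744 reads and was at least 167-fold higher. TAP1 had 9.18% and 10.6% against 4 of 2522 reads, a ratio of 63.5. HLA-E had 2.59% and 2.23% against 4 of 5718 reads, a ratio of 33.9. The other 4 rose from a control that was already more edited. TAP2 went from 2.95% ± 0.189 (SD, n = 2) in the control to 14.6% and 20.5%, a ratio of 6.27. TAPBP reached 6.29% and 6.08% (ratio 6.21), ERAP1 3.36% and 6.42% (ratio 4.72) and HLA-B 1.78% and 1.06% (ratio 3.70).

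The edgeR log2 fold changes of members with edited control reads were 5.88 ± 0.40 (SE) for TAP1, 5.0 ± 0.51 for HLA-E, 2.63 ± 0.25 for TAPBP, 2.62 ± 0.28 for TAP2, 2.13 ± 0.85 for ERAP1 and 1.89 ± 0.42 for HLA-B. The median over all genes tested was 3.96 in another measure (log2 of the pooled ratio, with genes of 0 edited control reads at their bound). B2M and HLA-C had 0 edited control reads and are left out of this list, with bounds of at least 102-fold and 167-fold. The edgeR adjusted p was 3.33e-11 for B2M, whose test could not come out lower, and 0.000387 for HLA-B. That of ERAP1 was 0.0245, and 0.118 without control replicate 2. When the library-wide edited share entered the offset, HLA-B, TAP2 and TAPBP lay below the library-wide rise (edgeR; 10.8% of all genes lay below it). B2M and HLA-C were fitted above it (12.6% of all genes). With 0 edited control reads their tests could not come out below it. Their scores with the fusion lay under the 4.93% of all reads edited there. None of these 5 calls held without fusion replicate 1 or without fusion replicate 2.

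**Figure D3:**
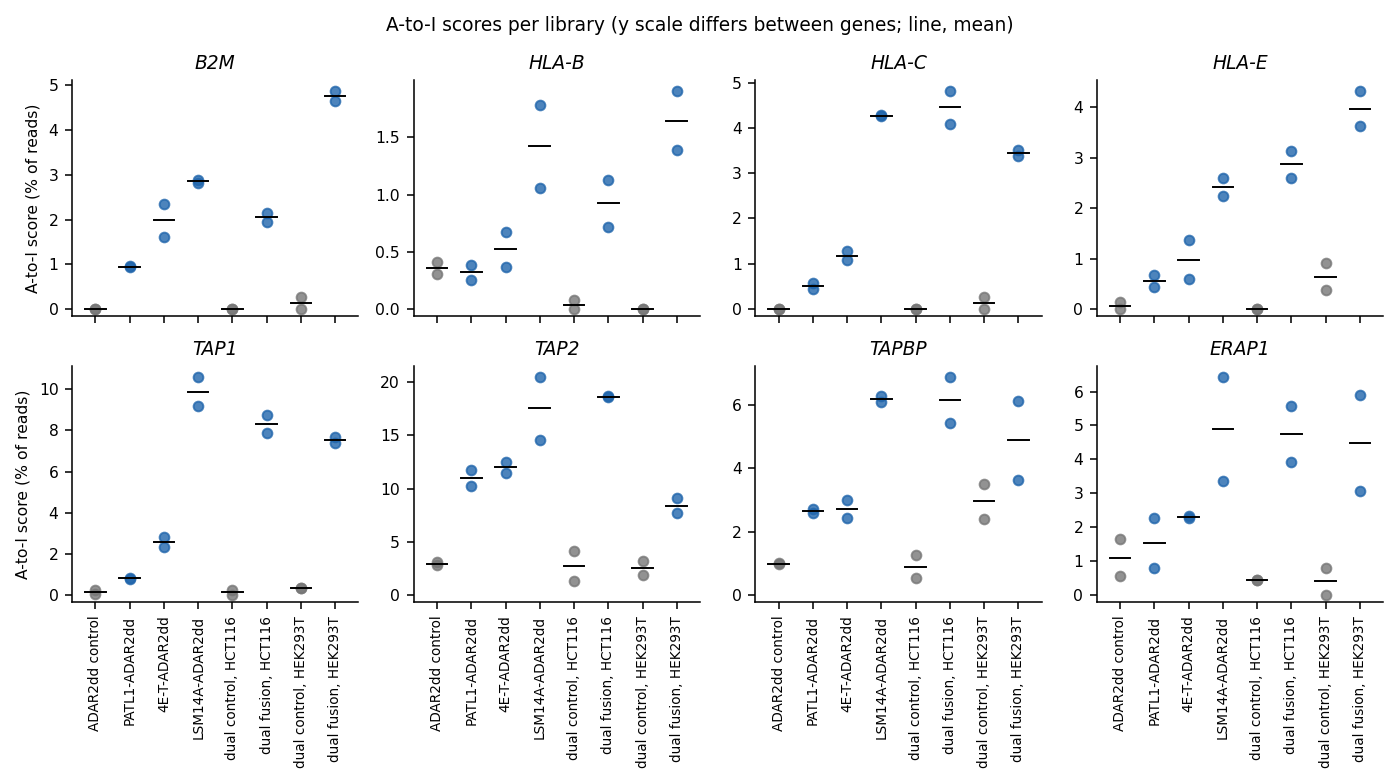
A-to-I score of each member (percent of reads) in each library of 3 ADAR2dd fusions, of the dual fusion in both lines and of their controls; points are libraries and lines are means. B2M and HLA-C lie at 0 in the ADAR2dd control, while TAP2 already stands at 2.95% there.

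Fusions of 4E-T and PATL1 with ADAR2dd last marked these mRNAs at lower scores. The share of all reads edited was lower too, at 2.41% and 1.09% against 4.93% with LSM14A-ADAR2dd. With 4E-T-ADAR2dd B2M had 2.35% and 1.62% (at least 70.5-fold higher), HLA-C 1.08% and 1.27% (at least 46.1-fold), TAP1 2.36% and 2.81% (ratio 16.3) and TAP2 12.5% and 11.5% (4.08). Of the 8, 6 were called and 7 did not overlap the control (87.9% and 95.1% of the genes tested). HLA-B had 0.371% and 0.673% and did not pass, and HLA-E was called but did not hold without fusion replicate 2 (adjusted p = 0.0946). With PATL1-ADAR2dd B2M had 0.956% and 0.939% (at least 33.8-fold higher), HLA-C 0.451% and 0.568% (at least 19.9-fold) and TAP2 11.8% and 10.2% (ratio 3.74). There 6 were called and 6 did not overlap (60.3% and 80.1% of the genes tested). Of these HLA-E did not hold without fusion replicate 1 or fusion replicate 2 (adjusted p = 0.138 and 0.0694), nor TAP1 without control replicate 2, fusion replicate 1 or fusion replicate 2 (adjusted p = 0.0720, 0.0776 and 0.0725). These fusions share the control with LSM14A-ADAR2dd.

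The other 7 ADAR2dd fusions gave a different picture for the light chain. B2M had 0 edited reads in every library of ADAR2dd-4E-T, ADAR2dd-DDX6, DDX6-ADAR2dd, ADAR2dd-EDC3, EDC3-ADAR2dd, ADAR2dd-LSM14A and ADAR2dd-PATL1. HLA-C had 0 as well, apart from 9 of 11345 reads with ADAR2dd-LSM14A. TAP2 was called with ADAR2dd-DDX6 (8.49% and 9.04%, ratio 2.99; 46.1% of genes were higher) and DDX6-ADAR2dd (12.0% and 8.66%, ratio 3.49; 49.2%). TAPBP was called with DDX6-ADAR2dd (2.92% and 1.49%, ratio 2.22) and did not hold without fusion replicate 1 (adjusted p = 0.273). HLA-B went the other way with ADAR2dd-DDX6, at 0 of 4817 reads against 19 of 5293 reads in the control, at least 5.76-fold lower (edgeR adjusted p = 0.00189; 0.0808% of genes were lower). Without control replicate 1 too few edited reads remained for a test, and in the other 3 fits that left out a library the adjusted p was at most 0.0391. With ADAR2dd-EDC3 HLA-B was at 0 of 4577 reads, at least 5.48-fold lower (edgeR adjusted p = 0.0138; 0.101% of genes), which did not hold without control replicate 2 or fusion replicate 1 (adjusted p = 0.102 and 0.0524), nor with no minimum of edited reads (0.122), and could not be tested without control replicate 1. DESeq2 gave no adjusted p for either.

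Over all 10 ADAR2dd fusions 46 of 80 tests were possible, 23 found a member higher (49.2% of all gene tests) and 2 lower (0.0944%). B2M and HLA-C had 0 edited control reads, so they could be tested only where the fusion edited them, and could not come out lower. HLA-B had 0 edited reads with ADAR2dd-DDX6 and ADAR2dd-EDC3, so there its test could not come out higher. These counts are limited by that filter. TAP2 was the most edited member in 21 of 22 A-to-I groups, controls included. It held rank 70 of 11040 genes with the unfused ADAR2dd and rank 23 of 10799 with LSM14A-ADAR2dd. Across 15 HCT116 groups the genes whose log A-to-I score followed HLA-B most closely were SYNE4 (r = 0.943), NUDT4 (0.934), ETS2 (0.928), UMAD1 (0.920) and TTI2 (0.919), among 10036 genes that share controls and library depth.

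The dual fusion, which carries LSM14A-ADAR2dd, was read for A-to-I editing in 3 sets of libraries. In HCT116 B2M had 2.15% and 1.94% (at least 80.1-fold higher), HLA-C 4.81% and 4.09% (at least 149-fold), HLA-E 2.60% and 3.15% (at least 53.7-fold), TAP1 8.74% and 7.85% (ratio 59.9) and TAP2 18.6% and 18.7% (6.59). In HEK293T B2M had 4.65% and 4.87% (ratio 35.9), HLA-C 3.38% and 3.51% (26.3), HLA-E 3.63% and 4.32% (6.14), TAP1 7.67% and 7.38% (22.5) and TAP2 7.72% and 9.09% (3.26). In the illumina set B2M had 2.17% and 2.40%, HLA-C 5.69% and 5.62% and TAP2 20.3% and 20.5%. B2M was more edited, and TAP2 less, in HEK293T than in either HCT116 set, with no overlap of libraries. Of all reads 4.52% were edited in HCT116, 5.71% in HEK293T and 4.78% in the illumina set.

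All 8 members lay above the dual control without overlap in each set (97.8%, 98.5% and 97.2% of the genes tested in HCT116, HEK293T and the illumina set). All 8 were called in both HCT116 sets (94.8% and 92.2% of genes) and 7 in HEK293T (94.5%), where TAPBP had 6.12% and 3.64% against 2.40% and 3.52% and did not pass. B2M, HLA-C and HLA-E in both HCT116 sets and HLA-B in HEK293T had 0 edited control reads, so their tests could not come out lower. Of the 23 calls 22 held without any single library, and the other, ERAP1 in HEK293T, did not hold without control replicate 1 or fusion replicate 2 (adjusted p = 0.0547 and 0.0557). The calls of the illumina set therefore held without either of its similar control libraries.

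Whether the effect of the dual fusion differed between the lines was tested as an interaction on edited reads. For C-to-U editing the log2 fold change of HLA-B differed by -3.87 ± 0.78 (SE; HEK293T minus HCT116), with an edgeR adjusted p of 0.000219, and stayed called without any single library. Its fusion scores lay close in the lines, while its control was more edited in HEK293T. The median of all genes was 0.28 for C-to-U and -0.14 for A-to-I editing, and 4.62% and 2.56% of genes were called lower. For A-to-I editing HLA-C, HLA-E and TAPBP were called lower as well. HLA-C and HLA-E had 0 edited reads in both HCT116 control libraries, so the size of their fitted differences depends on the prior count. HLA-C did not hold without HCT116 control replicate 1, HCT116 control replicate 2 or HEK293T control replicate 1 (adjusted p = 0.0796, 0.108 and 1.00), nor HLA-E without HEK293T control replicate 2 (adjusted p = 0.174), nor TAPBP without HCT116 control replicate 1, HCT116 fusion replicate 1, HEK293T control replicate 2 or HEK293T fusion replicate 2 (adjusted p = 0.128, 0.0819, 0.309 and 0.121).

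Recruitment by rapamycin was followed over time in HEK293T cells. With LSM14A-TRIBE-ID the A-to-I edited share of all reads was 0.822% at 0 min and 5.66% at 120 min. In LSM14A-TRIBE-ID cells TAP1 had an A-to-I score of 1.51% and 0.415% at 0 min, 2.63% and 3.88% at 15 min, 6.19% and 5.26% at 30 min, 8.96% and 11.4% at 60 min and 12.8% and 10.8% at 120 min. Only the 60 and 120 min groups overlapped their neighbour. HLA-C had 0.240% and 0% at 0 min, 0.534% and 0.502% at 15 min, 0.875% and 1.02% at 30 min, 0.95% and 0.939% at 60 min and 2.83% and 2.22% at 120 min. B2M had 7 of 2953 reads edited at 0 min, none at 15 and 30 min, 0.524% and 0.455% at 60 min and 1.27% and 1.82% at 120 min. HLA-B had no edited read at 0, 15 and 30 min and 1.61% and 0.637% at 120 min. TAP2 was edited from the start, at 8.63% and 5.78%, and had 17.4% and 10.5% at 120 min.

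**Figure D4:**
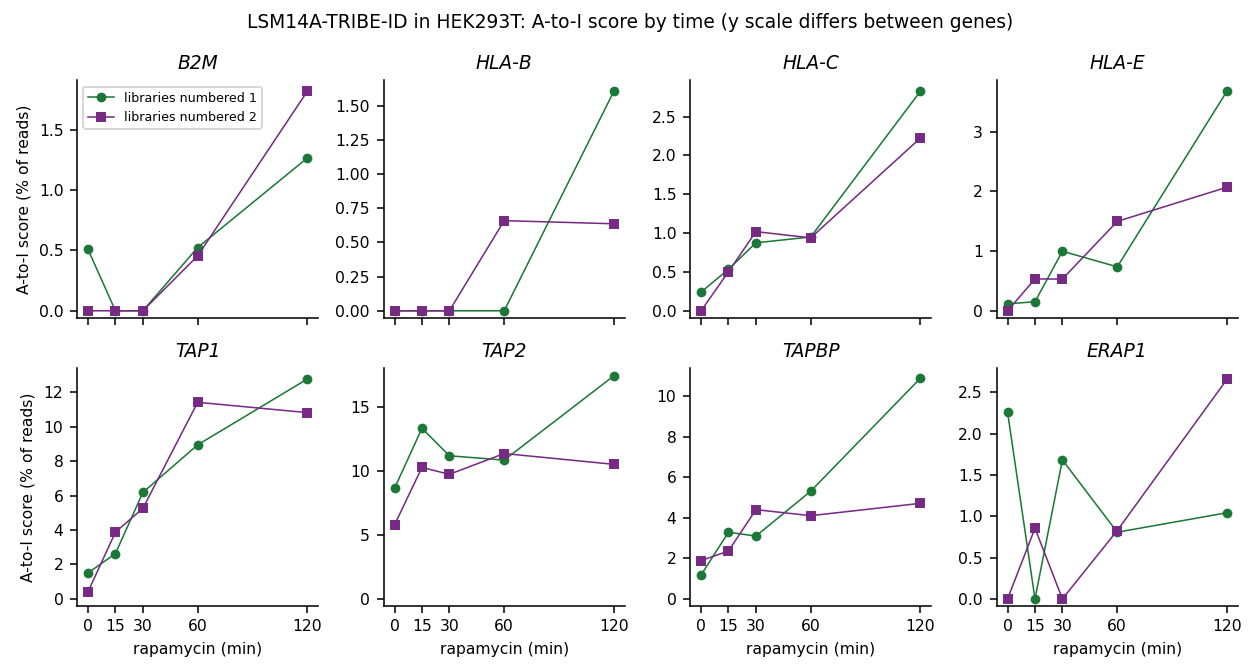
A-to-I score of each member (percent of reads) in LSM14A-TRIBE-ID libraries at 0, 15, 30, 60 and 120 min of rapamycin, with lines joining libraries of the same number. TAP1 is at 1.51% and 0.415% at 0 min and 12.8% and 10.8% at 120 min.

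At 15 min none of the 4 members with enough edited reads was called by edgeR, DESeq2 or limma (16.8% of genes were called higher by edgeR), and 1 of the 4 had an unadjusted edgeR p under 0.05. All the same HLA-C, TAP1, TAP2 and TAPBP did not overlap 0 min (60.7% of the genes tested), nor did HLA-E, which had too few edited reads for the test. At 30 min HLA-C, HLA-E and TAP1 were called (56.9% of genes), but HLA-C did not hold without fusion replicate 1 or fusion replicate 2 (adjusted p = 0.0579 and 0.0897), nor HLA-E without control replicate 2 (adjusted p = 0.0909), nor TAP1 without control replicate 2, fusion replicate 1 or fusion replicate 2 (adjusted p = 0.0539, 0.0809 and 0.0622). At 60 min HLA-C, HLA-E, TAP1 and TAPBP were called (79.7% of genes), of which HLA-C did not hold without fusion replicate 1 or fusion replicate 2 (adjusted p = 0.0669 and 0.0681), nor TAPBP without control replicate 1, fusion replicate 1 or fusion replicate 2 (adjusted p = 0.111, 0.165 and 0.0810). At 120 min 7 members were called (86.6% of genes), with log2 fold changes of 4.37 ± 0.65 (SE) for HLA-C, 3.59 ± 0.66 for TAP1, 2.65 ± 0.80 for B2M, 2.30 ± 0.64 for TAPBP and 0.94 ± 0.38 for TAP2. HLA-E (1 of 1671 reads at 0 min) had a ratio of 47.6 with a counting interval of 7.95 to 1937. HLA-B (0 of 2245 reads at 0 min) was at least 8.12-fold higher, and its test could not come out lower. At 120 min B2M did not hold without fusion replicate 1 or fusion replicate 2 (adjusted p = 0.0796 and 0.156), nor TAP2 without control replicate 2 or fusion replicate 1 (adjusted p = 0.103 and 0.337), nor TAPBP without fusion replicate 1 (adjusted p = 0.116).

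In DDX6-STAMP-ID cells no member other than B2M, which was not tested, was called for C-to-U editing at 15, 30 or 120 min by edgeR, DESeq2 or limma, with 0 at an unadjusted p under 0.05 among the 5 or 6 tested. By edgeR, of all genes 0.0159%, 0.0321% and 0% were called higher. The times of each construct share the 0 min libraries.

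Translation efficiency was deposited as 1 log2 value per genotype and line, so that the differences below have no replicate check. B2M had the highest value of the 8 in both lines, 1.67 in wild-type HCT116, at percentile 99.7 of all genes, and 0.636 in wild-type HEK293T. In HCT116 HLA-B had 0.334, HLA-C 0.438, TAPBP 0.595, TAP1 0.533 and TAP2 -0.329. In HEK293T 7 of 8 members had a lower wild-type value than in HCT116, as 46.8% of all genes did, with HLA-B at -0.413 and TAP1 at -0.260. TAP2 was the exception at 0.0317.

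In DDX6-KO HCT116 cells 6 of 8 members lay above wild-type, with a median difference of 0.0835, while 70.9% of 20041 genes lay above it with a median of 0.157. TAP2 differed by 0.344, HLA-B by 0.277 and B2M by 0.0325. In DDX6-KO HEK293T cells 7 of 8 lay above wild-type, with a median of 0.0636 against 0.0220 over 25362 genes, of which 54.1% lay above. B2M differed there by 0.342, ERAP1 by 0.318 and TAPBP by -0.285.

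**Figure D5:**
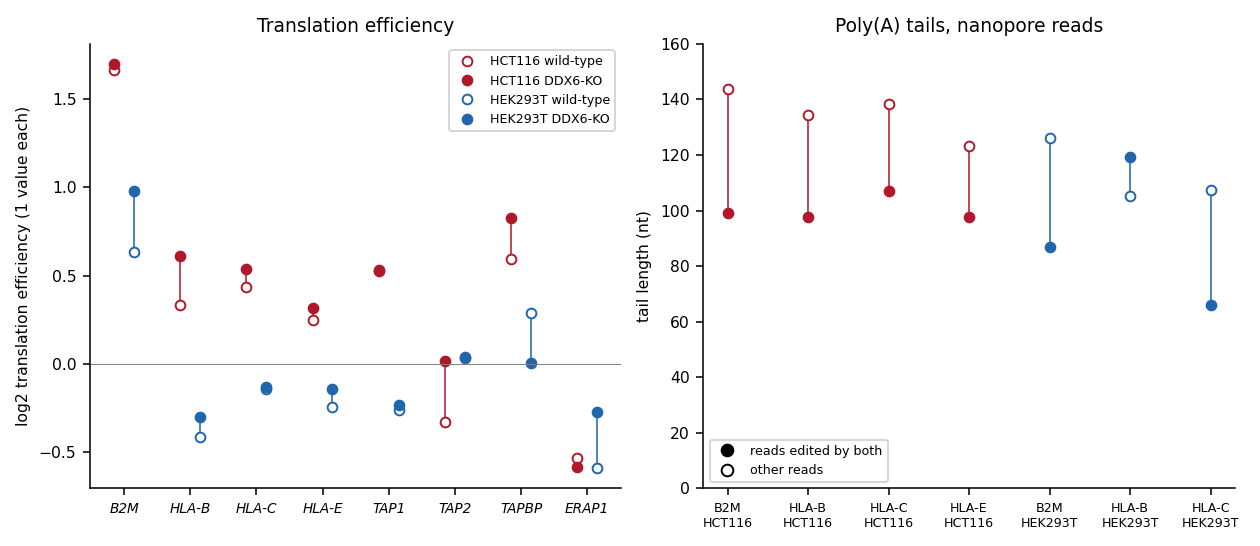
Left, log2 translation efficiency of each member in wild-type (open) and DDX6-KO (filled) cells of both lines, 1 value each. Right, tail length in nt of nanopore reads edited by both enzymes (filled) and of other reads (open); 6 of 7 pairs have the shorter tail in doubly edited reads.

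Nanopore reads of dual fusion cells gave tail lengths for 4 members in HCT116 and 3 in HEK293T, in 1 library per line and without a test. In HCT116 the 324 B2M reads edited by both enzymes had a tail of 99.1 nt and the 2603 others 144 nt. HLA-B had 97.7 nt in 118 reads against 134 nt, HLA-C 107 nt in 225 against 138 nt, and HLA-E 97.9 nt in 15 against 123 nt. The tails of doubly edited reads were shorter in 4 of 4, as they were for 81.9% of 1094 genes. In HEK293T B2M had 87.0 nt in 29 reads against 126 nt and HLA-C 66.2 nt in 16 against 107 nt. HLA-B, with 8 doubly edited reads, had 119 nt against 105 nt, where 85.4% of 678 genes had the shorter tail in doubly edited reads. The doubly edited share was 11.1% for B2M (exact Clopper-Pearson 95% interval 9.95 to 12.3), 11.8% for HLA-C (10.4 to 13.3), 5.40% for HLA-B (4.49 to 6.43) and 6.30% for HLA-E (3.57 to 10.2) in HCT116, all below the median of 23.5% over the listed genes. In HEK293T it was 18.5% for B2M (12.7 to 25.4), against a median of 23.1%. No listed gene had under 8 doubly edited reads in either line, so a gene of few reads could be listed only with a high doubly edited share. The medians are thus not those of genes read as deeply as these members, and a low share cannot be concluded from them.

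Other genes of the pathway were counted over lists. Of the loading complex chaperones and editors 6 of 6 tested were called higher for A-to-I editing with LSM14A-ADAR2dd, with a median log2 ratio, at the bound where the control had 0 edited reads, of 7.89 against 3.96 over all genes, of which 93.1% were called higher. CALR (calreticulin) had 2.82% ± 0.236 (SD, n = 2) and CANX (calnexin), which both help glycoproteins to fold, 3.50% ± 0.145. HSPA5, the chaperone BiP, had 1.62% ± 0.0532. With this fusion the median gene had 3.51% and 4.93% of all reads were edited, so the high median ratio does not mean high scores of these named genes. For C-to-U editing with the dual fusion in HCT116 6 of 6 were called higher (median 4.09 against 1.78 over all genes, of which 50.6% were called higher), with CALR at 0.116% ± 0.0235 and CANX at 3.89% ± 0.00944. Of the other class I heavy chains and class I-like molecules 7 of 7 were higher for A-to-I with LSM14A-ADAR2dd, and their median of 3.09 lay below that of all genes. Of the peptide trimming and supply genes 6 of 6 were higher (median 4.32), and of the class I gene regulators 9 of 9 (median 4.16), shares that lie near the 93.1% of all genes.

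In reads, HEK293T against HCT116 dual controls had 6 of 6 chaperones and editors, 7 of 8 other heavy chain and class I-like genes and 6 of 7 peptide trimming and supply genes lower, with medians of -0.67, -1.38 and -0.42 (log2) against 0.01 over all genes, of which 42.7% were lower. The class I gene regulators were split (43.2% of all genes were higher), with 4 higher and 6 lower of 10. In uninduced dual control cells 9 of 10 other heavy chain and class I-like genes were higher than in the APOBEC1 control, with a median of 0.68 on the log2(TPM + 1) scale against 0.13 over all genes, of which 39.6% were higher. Of 10 class II and antigen presenting cell genes 1 could be tested for A-to-I editing with LSM14A-ADAR2dd, and it was ITGAX, at 1.52% ± 0.208 against 0.214% ± 0.0541 in the control.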

How the data were processed

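Editing of mRNA was read from 83 induced HCT116 and HEK293T libraries, RNA level from 10 uninduced HCT116 libraries, and translation efficiency and tail length from tables of both lines. The submitters' processing notes list the build hg38 and the tools STAR 2.7.9a, featureCounts 2.0.1, cutadapt 1.18 and FastQC 0.11.9 without roles, and the caller of edited sites is not given in the sources used here. The authors deposited, per gene and library, counts of edited reads, counts of reads and their fraction. The TPM values were computed by the authors, in a way not given in the sources used here, and have the same sum in each deposited library. The deposited translation efficiency is 1 log2 value per genotype and line, per the file header, and how replicates were combined is not given in the sources used here. The deposited tail lengths are a signal in nt per gene, per the file header.

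From these, edited reads were tested across all genes with edgeR 4.0.16 quasi-likelihood fits (R 4.3.3) with the log of a gene's reads as offset, where every library had 20 reads of the gene or more and the edited reads summed to 10 or more. A gene with 0 edited reads in a group passes this filter through the other group alone, so its test cannot come out in both directions. A second fit added the library-wide edited share to the offset. Reads per gene were tested with edgeR (TMM, filterByExpr). TPM were tested with limma 3.58.1 on log2(TPM + 1), with a mean of 1 TPM as the minimum. P-values were adjusted by Benjamini-Hochberg over all genes tested, at 0.05. Fits were tested on simulated data first. Where leaving out a library left 1 sample in a group, that sample was assumed to vary like the others. DESeq2 1.42.0 was an alternative, and adjusted p-values that it did not give stayed missing. Others were limma on log2(score in percent + 0.1), other filters and pseudocounts, and a replicate block. Ratios pooled the libraries of a group, with a floor of 3 counts where a group had 0.

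All 8 members were named, and of each list of the pathway up to 3 genes, those with the most reads, and the 5 genes closest to B2M or HLA-B by correlation. The members and lists were chosen with earlier results of these data known. For CNOT1-R-APOBEC1 and CNOT10-APOBEC1 the column names match the sample titles, and the file list ties each table to the other sample; the column names were used.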

Additional observations from a re-analysis of the deposited data

Results flagged for a closer look

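In 4 results the ratio of dual fusion to control differed between HEK293T and HCT116 cells by the test of the difference itself (edgeR, adjusted over all genes, HEK293T minus HCT116 in log2 fold change). Of all genes 4.62% were called lower for C-to-U and 2.56% for A-to-I editing. B2M, whose C-to-U values are given as a description, is not among the 4. For C-to-U editing HLA-B differed by -3.87, with a pooled fusion-to-control ratio of 48.9 (counting interval 16.5 to 239) in HCT116 and 3.10 in HEK293T, and it stayed called without any single library. Its fusion scores lay close, at 2.65% and 2.65% in HCT116 and 2.62% and 2.25% in HEK293T. The controls had 3 of 5531 and 21 of 2668 reads edited, where 0.241% and 0.624% of all reads were. The part of the unfused editors in this difference was not tested. For A-to-I editing HLA-C differed by -5.92, HLA-E by -6.12 and TAPBP by -2.0. HLA-C was at -0.37 without HEK293T control replicate 1. TAPBP was at -1.56 to -1.81 over the libraries without which it did not pass. The pooled A-to-I ratio of TAPBP was 6.74 in HCT116 and 1.66 in HEK293T. By limma on log2 scores none of the 4 passed, and DESeq2 called all 4.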

How the results depend on the processing

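The 23 higher calls with ADAR2dd fusions were 19 to 23 without 1 library at a time, and the 2 lower calls 0 to 5, with 1 when no minimum of edited reads was set. The 5 calls with APOBEC1 fusions were 2 to 4 without 1 library, 0 by DESeq2, 0 by limma and 3 with the replicate block. Calls of the dual fusion were 22 to 23 of 23 for A-to-I and 8 to 14 of 15 for C-to-U. The 14 calls after rapamycin were 5 to 15, and 7 by DESeq2. Relative to library-wide editing 17 of 151 tests (11.3%) found a member higher and 19 (12.6%) lower. Of all gene tests 7.33% were called higher and 5.69% lower. By limma 4 were higher, and neither count was stable without 1 library at a time. A member with 0 edited control reads could not come out lower in this fit. The 4 differences between lines were 2 to 4, and 0 by limma. For uninduced lines 19 higher calls became 18 to 20, and lower calls 0 to 1, with 2 when libraries were centred on the median of all genes, a choice made after seeing the data. In reads of PATL1-APOBEC1 cells HLA-C (log2 difference of -0.16 without fusion replicate 2) and TAP1 (-0.32) turned to 0.10 and 0.13 without fusion replicate 1. The causes were not tested.

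Samples share only a replicate number, and the replicate block gave adjusted p of 0.0511 for HLA-B and 0.0618 for TAP2 with LSM14A-APOBEC1, 0.0696 for ERAP1 and 0.0557 for TAP2 in the illumina set (C-to-U), and 0.0535 for TAPBP in the uninduced dual control (edgeR, limma). Deviations of LSM14A-TRIBE-ID libraries of the same number correlated at 0.692 to 0.748 between 0 min and each of the 4 later times, which share the 0 min libraries, while the other correlations lay between -0.0541 and 0.150. With the block TAPBP at 60 min had an adjusted p of 0.0637, and reads of B2M were lower at 15 min (-0.13, adjusted p = 0.0149) and at 120 min (-0.18, adjusted p = 0.0179; edgeR).

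Too few edited reads for a test were left without 1 or more libraries for HLA-B with ADAR2dd-DDX6 and ADAR2dd-EDC3, for ERAP1 with LSM14A-ADAR2dd and with the dual fusion in HEK293T (A-to-I) and the illumina set (C-to-U), and in LSM14A-TRIBE-ID cells for HLA-E at 30 and 60 min and HLA-B at 120 min.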
